A study of Mus musculus with 30 samples.

Results

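Transcript levels in the motoneurons of the intermediolateral column (IML) were compared with those in the medial motor column pool (MMN) of the same mice. The samples were chosen by their labelled cell type and comprised 20 of the 30 arrays of the study, 10 per pool. The arrays of an animal and pool that shared 1 RNA extract were averaged, which gave 10 of 15 samples, 5 per pool. All 12422 probe sets that were not array controls were tested.

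Both pools came from the spinal cord of each of 5 adult mice that had a sham operation, and no strain, sex or age in days is given in the labels. Each cell type of each animal was collected by laser capture microscopy as 400 captures, and its extract was divided between 2 Affymetrix arrays after a double-round amplification. The third pool, the lateral motoneurons (LMN), came from the same animals and is used below only as a reference. The animal was the unit of replication, and the 2 arrays of a sample measured technical spread. The labels name no transgene or other allele and no treatment beside the sham operation.

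The IML of the thoracic and upper lumbar cord holds the sympathetic preganglionic neurons, cholinergic motoneurons whose axons leave the cord and synapse on autonomic ganglion cells and on the adrenal medulla. The medial motor column holds somatic motoneurons that innervate the axial muscles along the spine. Both are motoneurons by origin, but the preganglionic neurons are smaller, have thin axons and release neuropeptides beside acetylcholine, while somatic motoneurons have large somata, thick neurofilament-rich axons and fast firing properties.

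There were 6 genes that passed the test between the pools, each higher in IML. They were Adcyap1, Reln, Ahi1, Gap43, D430019H16Rik and Hpca, with differences from 0.77 to 1.59 on the log2 scale, or 1.70-fold to 3.01-fold, in 5 of 5 animals each. They make up 0.0483% of the 12422 probe sets, and 0.0727% of the 8251 genes that remain when each gene is represented by its brightest probe set. A gene is called here when its Benjamini-Hochberg adjusted p from limma, paired by animal, was under 0.05. No probe set was called lower in IML (0 of 12422, 0%), while 1193 had an unadjusted p under 0.05 in either direction (9.6%). The median SE of a difference was 0.0784 and the median difference over all probe sets 0.0052.

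The 6 calls lay close to the threshold, all with an adjusted p of 0.0436. Without each animal in turn 0 or 1 probe sets were called: Adcyap1 without animal 5, a probe set with no single gene symbol without animal 1, and none without animal 2, 3 or 4. After quantile normalization of the arrays, or after centring each array on its median, none was called, with smallest adjusted p of 0.0570 and 0.0523 and with 1293 and 1196 probe sets at an unadjusted p under 0.05. With all 3 pools in the model, whose spread is then estimated over 15 samples, 43 probe sets were called between IML and MMN (0.346%), 29 higher and 14 lower, including 5 of the 6.

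The start-site sequences of the 2 genes with the largest called differences are shown. Each is the 250 bases before a RefSeq transcript start in the GRCm38.p6 assembly, on the gene's strand. For Adcyap1, RefSeq lists 2 such windows, and the downstream one is printed, at chr17:93198918-93199167 on the plus strand. The Reln window is at chr5:22344706-22344955 on the minus strand. Capitals mark matches on either strand to the TATA box (TATAAA), the GC box (GGGCGG) or the cyclic AMP response element (TGACGTCA), and no 2 of these matches overlap.
Adcyap1: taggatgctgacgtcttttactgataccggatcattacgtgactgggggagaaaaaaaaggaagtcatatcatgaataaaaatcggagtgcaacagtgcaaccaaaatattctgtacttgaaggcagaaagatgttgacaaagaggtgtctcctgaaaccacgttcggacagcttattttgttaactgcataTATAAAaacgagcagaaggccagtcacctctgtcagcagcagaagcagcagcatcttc
Reln: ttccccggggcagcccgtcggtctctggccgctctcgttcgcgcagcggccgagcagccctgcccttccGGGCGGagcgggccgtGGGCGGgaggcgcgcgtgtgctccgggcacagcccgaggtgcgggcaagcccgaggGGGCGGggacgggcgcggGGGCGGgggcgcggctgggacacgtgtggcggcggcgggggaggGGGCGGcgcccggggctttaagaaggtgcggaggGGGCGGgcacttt
The Adcyap1 window was 42.4% G and C and held 1 TATA match, which began at position -58 from the start, and no GC box. The other Adcyap1 window was 39.6% G and C and held none of the 3 motifs. The Reln window was 80% G and C and held 6 GC boxes and no TATA match. Of 32841 windows of the same length, 12.4% held the TATA match and 32.7% the GC box. Neither window held the cyclic AMP response element, which 1.55% of windows did. These matches are descriptions of the letters and were not tested for use in either pool. Of the other called genes, Ahi1, Hpca and D430019H16Rik also had entries, and Gap43 had none.

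Adcyap1 had the largest called difference. It encodes PACAP, a peptide co-transmitter of preganglionic neurons. Its log2 intensity in animals 1 to 5 was 8.88, 9.35, 9.84, 10.40 and 8.63 in IML against 6.95, 7.99, 8.07, 8.61 and 7.53 in MMN. Every IML sample lay above every MMN sample, and the closest were IML of animal 5 and MMN of animal 4. The mean was 9.42 ± 0.72 (SD, n = 5) in IML and 7.83 ± 0.62 in MMN, a difference of 1.59 ± 0.13 (SE, limma, adjusted p = 0.0436). The 2 arrays of a sample differed by a technical SD of 0.19 in IML and 0.25 in MMN, well under that difference.

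Other peptide precursors had positive differences without being called, and only Tac1 exceeded Adcyap1 in size. Tac1, the substance P precursor, was at 8.34, 7.84, 6.97, 10.34 and 6.93 in IML against 5.42, 7.70, 5.61, 5.61 and 5.38 in MMN. Its difference of 2.14 ± 0.58 was the largest among the genes named, yet it had an adjusted p of 0.352, since it ran from near 0 in animal 2 to its highest value in animal 4. MMN of animal 2 stood above the IML samples of animals 3 and 5, so the pools overlapped. Penk, the enkephalin precursor, was at 12.65, 12.02, 12.04, 11.82 and 12.37 in IML and at 10.16, 11.16, 11.26, 11.19 and 10.53 in MMN. Its pools did not overlap, and its difference was 1.32 ± 0.27 (adjusted p = 0.250). The Penk probe set can bind related transcripts, and 2 other, dimmer probe sets of the gene gave 0.57 and 0.06.

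Gal, the galanin precursor, differed by 0.34 (adjusted p = 0.352) with no overlap between the pools. Sst, the somatostatin precursor, differed by 0.76 (unadjusted p = 0.0362, not called), higher in 4 of 5 animals, with the highest value, 10.66, in IML of animal 1. Of the 8 measured visceral motoneuron markers, Adcyap1 was called higher, none was called lower and 7 were not called. Of the 8, 6 had a positive difference, against 51.1% of all genes, with a median of 0.55 against 0.0025 over all genes. The median of the list ran from 0.21 in animal 2 to 1.33 in animal 1, and was 0.34 without animal 1. In that list 5 were higher at an unadjusted p under 0.05, against 5.7% of all genes, and 3 were higher with no overlap between pools, against 0.412%. The mean log2 level of the 8 ran from 7.63 to 8.23 in the IML samples and from 6.93 to 7.34 in MMN. Adcyap1 was among the markers given for this comparison, so its place in that list is no separate observation.

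In the wider list of 31 neuropeptide precursors the median was -0.0031 and the mean 0.21. Of the 31, 15 had a positive and 16 a negative difference, and 4 were higher with no overlap between pools, against 0.412% of all genes. At an unadjusted p under 0.05, 6 were higher and 1 lower, against 5.7% and 5.18% of all genes. Adcyap1, a marker given for this comparison, is among the 4 and the 6 and enters the mean level of the list. The mean log2 level of the list was 7.71, 7.39, 7.28, 7.51 and 7.28 in IML and 7.31, 7.30, 7.10, 7.24 and 7.16 in MMN, higher in IML in 5 of 5 animals. Nppb, a natriuretic peptide precursor, differed by 0.68 (adjusted p = 0.316) without overlap. Its means, 6.47 in IML and 5.79 in MMN, were under the median level of 7.11 over all probe sets. Cck, the cholecystokinin precursor, ran the other way at -0.85 (adjusted p = 0.341) and was lower in IML in 4 of 5 animals. Among 17 granins and prohormone processing genes none was called, and the median was 0.06. Scg2, the granule protein secretogranin II, was at 9.70, 9.98, 9.69, 9.61 and 9.68 in IML and at 8.87, 9.39, 9.32, 9.18 and 9.21 in MMN. All IML samples were above all MMN samples, with a difference of 0.54 ± 0.08 that did not pass (adjusted p = 0.131). Pcsk1, a convertase that cuts peptide precursors, differed by 0.37 (adjusted p = 0.259).

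**Figure D1:**
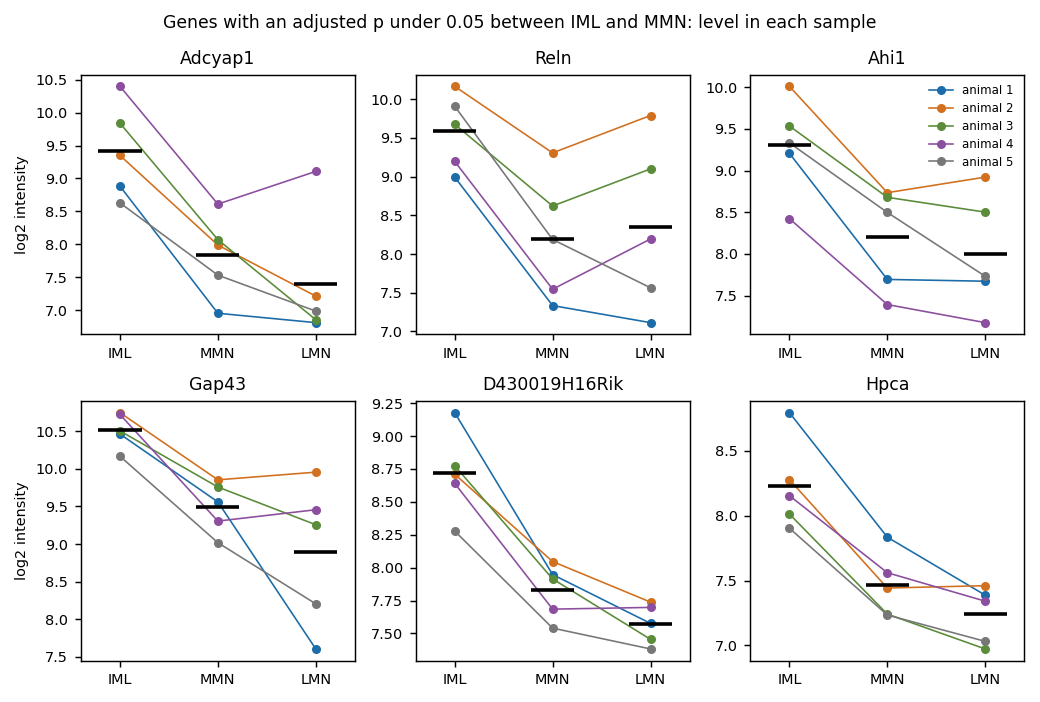
Log2 intensity of the 6 called genes in each sample, with a line and a colour for each animal, a black bar for the mean of each pool, and the lateral pool (LMN) for reference. The line from IML to MMN goes down in 5 of 5 animals for each gene, while the pools of Reln and Ahi1 overlap in level.

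Reln encodes reelin, a secreted glycoprotein that positions migrating neurons, preganglionic neurons among them. It was at 8.99, 10.16, 9.67, 9.20 and 9.91 in IML and at 7.33, 9.30, 8.62, 7.55 and 8.19 in MMN. MMN of animal 2, at 9.30, exceeded IML of animals 1 and 4, so that the levels overlapped while the difference within each animal kept its sign. The difference was 1.39 ± 0.14 (2.62-fold, adjusted p = 0.0436). A second probe set of Reln, of a kind that can bind related transcripts, differed by 0.12 ± 0.09 (adjusted p = 0.774), so the 2 probe sets disagreed in size. Of 21 measured genes of the reelin pathway, Reln alone was called, 10 were positive and the median was -0.0068. Reln, too, was a marker given for this comparison, so its call in the list is no separate observation. Mapt, the microtubule protein tau, differed by -0.41, Apoe, a ligand of reelin receptors, by 0.49 and the integrin subunit Itga3 by -0.15, with adjusted p from 0.466 to 0.491. A second Mapt probe set, at 9.79 and 9.77 in the pools, differed by 0.01, and a dimmer one by -0.52.

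Ahi1 encodes jouberin, a protein of the primary cilium's transition zone that is mutated in Joubert syndrome. Its levels were 9.21, 10.01, 9.53, 8.42 and 9.33 in IML and 7.69, 8.73, 8.68, 7.39 and 8.50 in MMN. IML of animal 4 was below the MMN samples of animals 2, 3 and 5, and within each animal IML was higher. The difference was 1.10 ± 0.11 (2.14-fold, adjusted p = 0.0436), and the technical SD, 0.43 in IML and 0.34 in MMN, was above the median of 0.134 and 0.124 over all probe sets. Of 18 genes of Ahi1 partners and the primary cilium, Ahi1 was the 1 called. Ahi1 was a marker given for this comparison, so its place in that list is no separate observation. Rab8a, a small GTPase of ciliary traffic, differed by 0.20 (adjusted p = 0.516), and the list's median was 0.01.

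Gap43, a membrane protein of growing axons and presynaptic endings, was at 10.46, 10.75, 10.50, 10.72 and 10.17 in IML and at 9.56, 9.85, 9.76, 9.31 and 9.02 in MMN. The pools were apart, and the difference was 1.02 ± 0.10 (2.03-fold, adjusted p = 0.0436). The Gap43 probe set is of a kind that can bind related transcripts, and no other probe set carried this symbol alone. Gap43 was the 1 of the 6 that was not called with all 3 pools in the model (adjusted p = 0.171), where its LMN samples ran from 7.61 to 9.96. Among 28 growth and injury genes Gap43 was called higher, none lower, 19 were positive and the median was 0.06. In the list 7 were higher at an unadjusted p under 0.05 and none lower, against 5.7% and 5.18% of all genes, and Gap43 is among the 7. Marcks, a substrate of protein kinase C that binds actin, differed by 0.86 and its relative Marcksl1 by 0.33, with adjusted p of 0.231 and 0.259.

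D430019H16Rik, a gene named here by its clone identifier, was at 9.18, 8.71, 8.77, 8.64 and 8.28 in IML and at 7.95, 8.05, 7.91, 7.68 and 7.54 in MMN. Every IML sample was higher than every MMN sample, and the difference was 0.89 ± 0.09 (1.85-fold, adjusted p = 0.0436). Hpca encodes hippocalcin, a neuronal calcium sensor that moves to membranes when calcium rises. It was at 8.80, 8.28, 8.01, 8.16 and 7.90 in IML and at 7.84, 7.44, 7.24, 7.56 and 7.23 in MMN. The pools were again apart, the closest samples being 7.90 in IML and 7.84 in MMN, and the difference was 0.77 ± 0.07 (1.70-fold, adjusted p = 0.0436).

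Cytosolic calcium buffers differed in opposite directions, and none of them was called. Calb1, calbindin, was at 7.83, 8.18, 7.45, 8.31 and 7.81 in IML and at 5.65, 7.50, 6.72, 6.81 and 5.99 in MMN, a difference of 1.38 ± 0.23 (adjusted p = 0.165). Only MMN of animal 2 reached above the lowest IML sample. Calb2, calretinin, was at 9.57, 10.01, 9.52, 10.45 and 9.85 in IML and at 10.21, 10.57, 10.53, 11.23 and 10.07 in MMN, a difference of -0.64 ± 0.11 (adjusted p = 0.180). Pvalb, parvalbumin, was at 12.17, 12.18, 12.07, 12.60 and 12.21 in IML and at 12.71, 12.80, 13.07, 13.19 and 12.45 in MMN. Its difference was -0.60 ± 0.10 (adjusted p = 0.190), and a second probe set gave -0.86. Each of the 3 buffers kept its sign in 5 of 5 animals, which was a condition for naming them and is no separate observation. These 3 genes are also markers of spinal interneurons, and their part in the captured material was not tested. Over all 26 calcium sensors and buffers, Hpca was called higher, none lower, and the median was 0.0088.

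**Figure D2:**
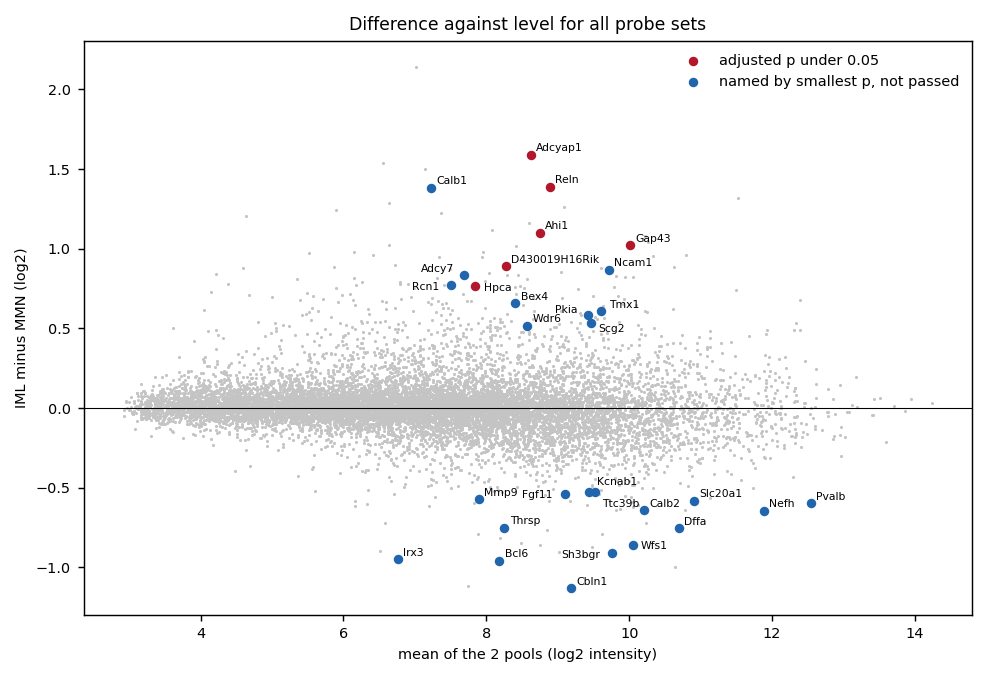
Difference between IML and MMN (log2, vertical axis) against the mean of both pools (log2 intensity, horizontal axis) for all 12422 probe sets, in grey. Red points are the 6 called genes, all above 0, and blue points are the genes named by smallest p that did not pass, 9 above and 15 below 0.

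A further 9 genes higher in IML met the conditions for naming without passing. They were the membrane adenylyl cyclase Adcy7 (0.83), Bex4 (0.66), the endoplasmic reticulum protein Tmx1 (0.61), the adhesion molecule Ncam1 (0.87), Scg2, the endoplasmic reticulum calcium-binding protein Rcn1 (0.78), Wdr6 (0.52), the protein kinase A inhibitor Pkia (0.59) and Calb1. Their adjusted p ran from 0.0785 to 0.165. Of the 15 genes named on this side, 9 had pools that did not overlap and 6 had pools that did. Over all genes 0.412% were higher without overlap. Naming by p and by the same sign in 5 of 5 animals favours such separation, so the count is no separate observation. Ncam1 was at 10.43, 10.08, 10.05, 10.31 and 9.86 in IML and at 9.19, 9.63, 9.16, 9.16 and 9.25 in MMN. The IML samples were all higher, by 0.87 ± 0.12 (adjusted p = 0.122), while its other probe sets gave 0.61 and -0.02, the last one at a level near 5.46 in both pools. Over 36 neuronal adhesion genes, none was called, 26 were positive against 51.1% of all genes, and the median was 0.07. At an unadjusted p under 0.05, 7 of the 36 were higher and 2 lower, against 5.7% and 5.18% of all genes. Among the 36 the adhesion molecule Mcam differed by -0.64, the immunoglobulin family member Igsf8 by 0.26 and the cadherin Cdh11 by 0.57. The Cdh11 means, 6.12 in IML and 5.54 in MMN, were under the median level of 7.11 over all probe sets.

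On the other side 15 genes lower in IML, and thus higher in the medial pool, were named, and none passed. Their differences ran in size from 0.53 to 1.13 and their adjusted p from 0.0531 to 0.222. The same sign in 5 of 5 animals was a condition for naming them. In 3 of the 15 the pools did not overlap, against 0.303% of all genes, a count that naming by smallest p favours. Cbln1 had the largest difference of the 15. It encodes cerebellin 1, a secreted protein that links presynaptic neurexins to postsynaptic delta glutamate receptors. It was at 8.74, 8.74, 8.48, 8.69 and 8.45 in IML and at 9.05, 9.74, 10.02, 10.26 and 9.69 in MMN. The IML samples stood within a narrow band below all MMN samples, of which animal 1 was the lowest. The difference was -1.13 ± 0.18 (2.19-fold lower, adjusted p = 0.152), from -0.32 in animal 1 to -1.57 in animal 4. No other of the 6 measured cerebellin and partner genes was negative, and that list's next genes by p, C1qc (0.30) and C1qa (0.35), are complement components made by microglia.

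**Figure D3:**
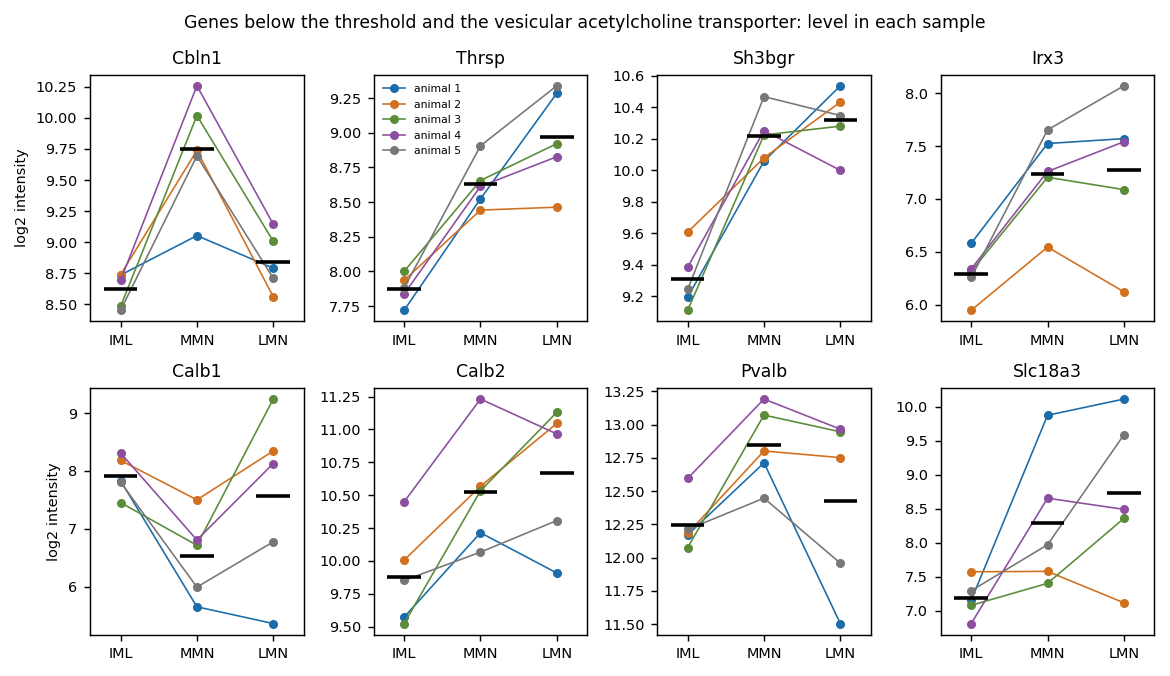
Log2 intensity in each sample of 7 genes below the threshold and of the vesicular acetylcholine transporter Slc18a3, with a line and a colour for each animal and a black bar for the mean of each pool. Cbln1 is highest in MMN, with a mean of 9.75 against 8.62 in IML and 8.84 in LMN. Sh3bgr and Irx3 are low in IML and near each other in MMN and LMN. Thrsp is low in IML, with a mean of 7.88, against 8.63 in MMN and 8.97 in LMN.

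Thrsp, a thyroid hormone responsive regulator of lipid synthesis, came closest to the threshold among the lower genes. It was at 7.72, 7.94, 8.00, 7.84 and 7.88 in IML and at 8.52, 8.44, 8.66, 8.61 and 8.91 in MMN. The pools were apart, and the difference was -0.75 ± 0.08 (adjusted p = 0.0531). Sh3bgr, which encodes a small protein of the thioredoxin-like SH3BGR family, was at 9.19, 9.61, 9.11, 9.38 and 9.24 in IML and at 10.06, 10.08, 10.22, 10.25 and 10.47 in MMN. All its MMN samples were higher, with a difference of -0.91 ± 0.11 (adjusted p = 0.0751). Dimmer probe sets of Sh3bgr gave -0.38 and -0.02. Without the pairing by animal Thrsp and Sh3bgr were the only genes called, with adjusted p of 0.0441 in that model, and none of the 6 was. A further 4 genes of this side were the phosphate transporter Slc20a1 (-0.58), the endoplasmic reticulum protein Wfs1, or wolframin (-0.86), Dffa, the inhibitor of the caspase-activated nuclease (-0.76), and the tetratricopeptide repeat gene Ttc39b (-0.53). In each of these the pools overlapped, and their adjusted p ran from 0.117 to 0.206. The probe sets of Ttc39b disagreed, since a second one of similar brightness differed by 0.01 and dimmer ones by -0.16 and 0.04.

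Irx3, a homeobox factor of the ventral neural tube, was at 6.58, 5.95, 6.31, 6.34 and 6.26 in IML and at 7.52, 6.54, 7.20, 7.26 and 7.65 in MMN. MMN of animal 2 was below IML of animal 1, and the difference was -0.95 ± 0.11 (adjusted p = 0.0578). Of 22 spinal interneuron transcription factors none was called, and the median was 0.02. At an unadjusted p under 0.05, 2 were higher and 4, with Irx3 among them, lower, against 5.7% and 5.18% of all genes. Nfib differed by -0.39, Pbx3 by 0.45 and Evx1 by -0.19. The Nfib means, 6.15 in IML and 6.54 in MMN, were under the median level of 7.11 over all probe sets. Of 17 motoneuron identity transcription factors none was called, with Ebf3 at 0.59 (adjusted p = 0.231) and a median of 0.04. Isl1, which both kinds of motoneuron express in development, was at means of 5.74 and 5.59, under the median level of 7.11 over all probe sets, so that its difference of 0.15 cannot be set against a detected level.

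Hox genes, which set position along the cord and motor column identity, had no call among 31 measured, 11 positive and 20 negative, with a median of -0.01. In this list 4 were lower in IML at an unadjusted p under 0.05 and none was higher, against 5.18% and 5.7% of all genes. Hoxa10 differed by -0.42, Hoxa7 by -0.26 and Hoxd10 by -0.22, each lower in 5 of 5 animals, with adjusted p from 0.339 to 0.463. Hoxa10, at means of 5.15 in IML and 5.57 in MMN, and Hoxd10, at 6.80 and 7.03, were under the median level of 7.11. The 4 Hox genes lower in 5 of 5 animals compare with 5.15% of all genes, and the 0 that were higher in 5 of 5 with 5.19%.

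Markers of skeletal motoneurons had mostly negative differences and no call. Nefh, the heavy neurofilament subunit, was at 11.30, 11.35, 11.45, 11.72 and 11.97 in IML and at 12.25, 11.83, 12.22, 12.20 and 12.52 in MMN. Only MMN of animal 2 was below the highest IML sample, and the difference was -0.65 ± 0.09 (adjusted p = 0.103). Mmp9, a matrix metalloproteinase of fast motoneurons, differed by -0.57 (adjusted p = 0.140) and the transcriptional repressor Bcl6 by -0.96 (adjusted p = 0.222). Of the 8 measured skeletal markers, 7 were negative and the median was -0.09, while 51.1% of all genes were positive. At an unadjusted p under 0.05, 3 were lower, against 5.18% of all genes. These 3 are Nefh, Mmp9 and Bcl6, which were named above for being lower, so the count is no separate observation. The mean log2 level of the 8, which includes these 3, ran from 7.30 to 7.42 in IML and from 7.47 to 7.84 in MMN, without overlap.

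No cytoskeletal gene was called. Among the 8 neurofilament and intermediate filament genes, 5 were negative and the median was -0.23. Nefl, the light subunit, differed by -0.23 (adjusted p = 0.416), and Gfap, the astrocyte filament, by 0.72 (adjusted p = 0.258). Of 35 tubulin and microtubule-associated genes, 24 were negative and the median was -0.07. At an unadjusted p under 0.05, 3 were higher and 5 lower, against 5.7% and 5.18% of all genes. The 3 higher ones had the smallest p of the list: Dcx (0.34), Stmn1 (0.32) and Stmn4 (0.34), which encode doublecortin and the microtubule-destabilising stathmins, with adjusted p from 0.278 to 0.352. Mapt, the next by p and 1 of the 5 lower, differed by -0.41 (adjusted p = 0.466).

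Channel genes gave no call. Of 41 potassium channel genes, 23 were positive. At an unadjusted p under 0.05, 3 were higher and 3 lower, against 5.7% and 5.18% of all genes. The auxiliary subunit Kcnab1 differed by -0.53 (adjusted p = 0.168), its partner Kcna1, a Shaker-type channel of axons, by -0.51 (adjusted p = 0.250), and Kcna5 by 0.30. The fibroblast growth factor homologue Fgf11 differed by -0.54 (adjusted p = 0.131), the sodium channel Scn8a by -0.38 and Fgf13 by 0.17. Dimmer probe sets gave 0.03 for Fgf11 and 0.01 for Scn8a. Kcna5, at means of 5.67 in IML and 5.38 in MMN, and Fgf13, at 5.25 and 5.08, were under the median level of 7.11. The calcium channel auxiliary subunit Cacna2d3 differed by -0.58 (adjusted p = 0.231) with pools that did not overlap, and 8 of 12 calcium channel genes were negative. Genes lower in IML without overlap made up 0.303% of all genes.

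The 55 measured synaptic vesicle and release genes held 30 positive differences and no call. Syt5, a synaptotagmin, was at 9.05, 9.03, 8.64, 8.79 and 8.67 in IML and at 8.61, 8.57, 8.04, 8.27 and 8.31 in MMN. The pools were apart by a small margin, and the difference was 0.48 ± 0.06 (adjusted p = 0.0788). Stxbp3 differed by 0.27, Syt3 by -0.24 and the vesicle GTPase Rab3b by -0.45. Among receptors, Npy2r, a receptor for neuropeptide Y, differed by 0.83 (adjusted p = 0.341) without overlap, and the 44 neuropeptide receptors had a median of 0.02. Of 26 heterotrimeric G protein subunits, 17 were positive, and the 4 of smallest p, Gna12 (0.30), Gng10 (0.59), Gnai3 (0.38) and Gnai2 (0.49), were positive without passing. Glutamate receptors, GABA and glycine receptors, acetylcholine receptors and monoamine receptors had medians from -0.05 to 0.03 and no call.

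Genes of mitochondrial respiration had mostly negative differences of small size. Of 70 oxidative phosphorylation genes, none was called, 61 were negative and the median was -0.18, while 51.1% of all genes were positive. At an unadjusted p under 0.05, 13 were lower and none was higher, against 5.18% and 5.7% of all genes. Of the 70, 10 were lower in 5 of 5 animals, against 5.15% of all genes. The list's median was -0.57 in animal 3 and 0.05 in animal 1, and -0.07 when animal 3 was left out. Atp5c1, a subunit of ATP synthase, differed by -0.39 without overlap and Cycs, cytochrome c, by -0.22, with adjusted p of 0.319 and 0.334. Of 40 proteasome genes 32 were negative (median -0.10), of 22 glycolysis genes 16 were negative (median -0.12), and of 33 cytosolic ribosomal protein genes 24 were positive (median 0.09). These medians were -0.05 for the proteasome without animal 3, -0.07 for glycolysis without animal 1 and 0.06 for ribosomal proteins without animal 5, and the proteasome median was above 0 in animals 2 and 4, at 0.05 and 0.02. Psme1, a proteasome activator subunit, was an exception to its list at 0.69 (adjusted p = 0.176), and Ldha, lactate dehydrogenase A, to its own at 0.62 (adjusted p = 0.254). Over all probe sets, split into 4 equal bands by level, the brightest band had a median difference of -0.02 and the dimmest 0.01. In these bands 43.6% and 58.6% of probe sets were positive. The part of level in the list differences was not tested.

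**Figure D4:**
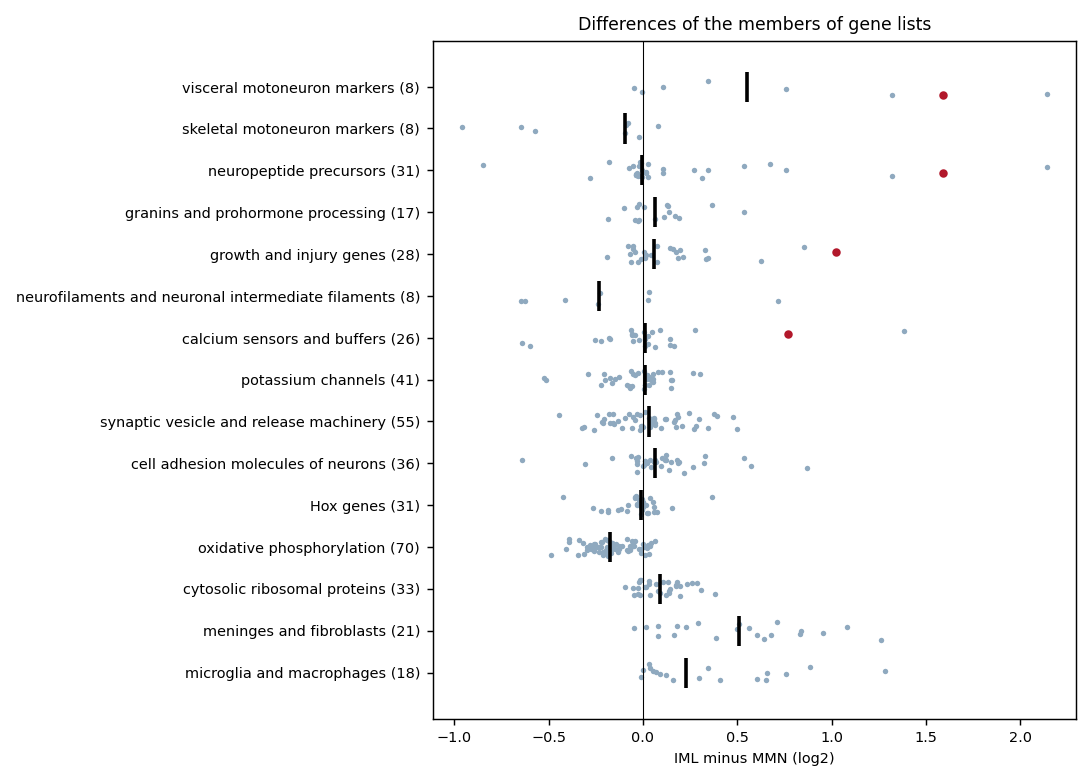
Difference between IML and MMN (log2) for each measured member of 15 gene lists, with the number of members in brackets, a black bar for the list's median and red points for called genes. Medians lie at 0.55 for visceral motoneuron markers and 0.51 for meningeal markers, at -0.23 for neurofilaments and -0.18 for oxidative phosphorylation, and close to 0 for neuropeptide precursors, channels and Hox genes.

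Motoneuron markers differed in how well they could be read. Slc18a3, the vesicular acetylcholine transporter, which both pools should express, was at 7.15, 7.57, 7.08, 6.81 and 7.29 in IML and at 9.87, 7.58, 7.40, 8.65 and 7.97 in MMN. The IML samples lay around the array-wide median level of 7.11, and the MMN samples of animals 2 and 3 were hardly higher. The difference of -1.11 ± 0.38 was negative in 5 of 5 animals, with -2.72 in animal 1 and -0.01 in animal 2, and did not pass (adjusted p = 0.463). Prph, peripherin, differed by -0.62 ± 0.34 (adjusted p = 0.625), with IML of animal 4 the highest sample of both pools at 11.44. Nos1, the neuronal nitric oxide synthase that marks many preganglionic neurons, was at means of 5.72 and 5.73, under the median level, with a difference of -0.01. Chat and Slc5a7 had no named probe set here.

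Markers of connective tissue and immune cells had mostly positive differences. Of 21 meningeal and fibroblast markers, none was called and 20 were positive, against 51.1% of all genes. The median was 0.51, or 0.31 without animal 3. At an unadjusted p under 0.05, 8 of the 21 were higher, against 5.7% of all genes. The mean log2 level of the 21 in animals 1 to 5 was 8.83, 9.68, 9.65, 8.80 and 9.44 in IML and 8.74, 9.79, 8.60, 8.13 and 8.64 in MMN. Animal 2 thus had slightly more in MMN, and the excess in IML was largest in animal 3. Summed linear intensities ran from 24958 to 36134 in IML and from 12702 to 39649 in MMN, and no marker of the list is known to be at 0, because no detection calls were used. Col1a1, a collagen chain, differed by 1.08 and the proteoglycan Lum by 1.26, with adjusted p of 0.334 and 0.411.

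Of 18 microglia and macrophage markers, none was called, 17 were positive against 51.1% of all genes, and the median was 0.23. At an unadjusted p under 0.05, 9 of the 18 were higher, against 5.7% of all genes. The mean of the 18 was 7.36, 7.13, 7.37, 6.87 and 7.07 in IML and 6.83, 7.06, 6.69, 6.68 and 6.75 in MMN, higher in IML in 5 of 5 animals. Csf1r, the receptor of the microglial growth factor, differed by 0.41, the leukocyte membrane protein Cd53 by 0.89 and the lysozyme Lyz2 by 1.28. Dimmer probe sets gave -0.12 for Csf1r and 0.23 for Lyz2. Astrocyte markers ran from 9.69 to 10.26 in IML and from 9.68 to 10.12 in MMN, and oligodendrocyte markers from 8.71 to 9.51 and from 8.78 to 9.28. Inhibitory interneuron markers ran from 8.13 to 8.56 and from 7.99 to 8.25, and excitatory ones from 6.98 to 7.65 and from 7.22 to 7.64. The red blood cell list was highest in IML of animal 3, at 9.21, against at most 8.10 in the other IML samples and 7.94 in MMN. The part of meninges, microglia, other glia and blood in the 6 called differences was not tested, and fewer motoneurons in a capture cannot be told apart from less RNA per motoneuron.

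**Figure D5:**
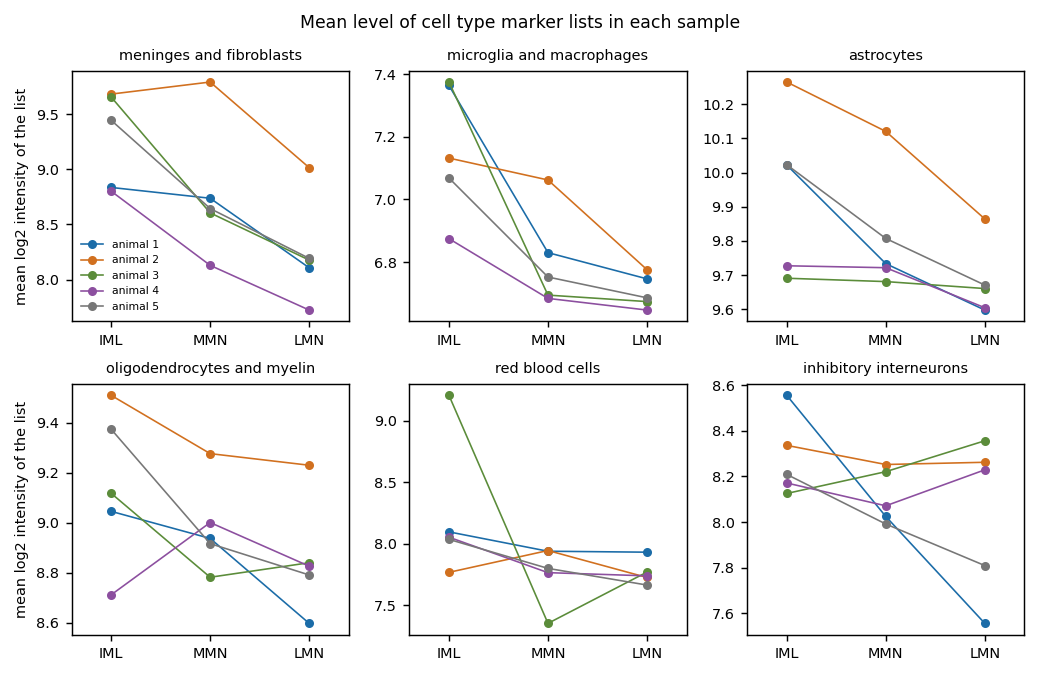
Mean log2 intensity of 6 cell type marker lists in each sample, with a line and a colour for each animal. The microglial and astrocyte lists are higher in IML than in MMN in 5 of 5 animals. For astrocytes the gap is small in animal 3 (9.69 against 9.68) and animal 4 (9.73 against 9.72). Of 16 astrocyte markers 10 were positive, with a median difference of 0.02. The meningeal, oligodendrocyte, red blood cell and inhibitory interneuron lists are higher in 4 of 5 each, all but animals 2, 4, 2 and 3 in that order.

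The animals contributed unequally. The number of probe sets at least 2-fold apart was 237, 21, 231, 172 and 102 in animals 1 to 5, and the median size of a difference was lowest in animal 2, at 0.0871, and highest in animal 3, at 0.172. In all 13 probe sets were at least 2-fold higher on average and higher in 5 of 5 animals (0.105%), and 2 were at least 2-fold lower and lower in 5 of 5 (0.0161%).

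The lateral pool gives a reference for a difference of the medial pool. It was read through the contrast of LMN with MMN in the model of all 3 pools. Of the 34 genes named by size or p or always named, none was called in that contrast, in which 0.0564% of all probe sets were. Most of the 34 were named for their difference from the same MMN samples, so their LMN minus MMN values are no separate observation. Cbln1 had the smallest adjusted p of the 34, 0.0856, with LMN lower than MMN by a difference of -0.91 ± 0.16. Its LMN samples, at 8.79, 8.56, 9.01, 9.15 and 8.71, overlapped those of IML and, in the top sample, MMN of animal 1. In a model of the LMN and MMN samples alone Cbln1 was called (adjusted p = 0.0344). It was also called in the model of all 3 pools without animal 1, which had the lowest MMN sample (-1.07, adjusted p = 0.0309). Cbln1 was a marker given for this comparison and both models reuse the MMN samples, so these calls are no separate observation. The difference of IML from LMN was -0.22 for Cbln1 (adjusted p = 0.431), against -1.13 from MMN, 2 values that share the IML samples.

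The 6 called genes were chosen for being higher in IML than in MMN, and the differences of IML from LMN and from MMN share the IML samples, so they are set side by side as a description only. The difference of IML from LMN was 2.03 for Adcyap1, 1.24 for Reln, 1.30 for Ahi1, 1.62 for Gap43, 1.15 for D430019H16Rik and 0.99 for Hpca, beside 1.59, 1.39, 1.10, 1.02, 0.89 and 0.77 from MMN. LMN differed from MMN by -0.44, 0.15, -0.20, -0.60, -0.26 and -0.22 in the same order, with adjusted p from 0.322 to 0.847. Calb1 had an LMN mean of 7.57 ± 1.52 and samples from 5.37 to 9.24 that spanned both other pools.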

How the data were processed

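RNA of laser-captured IML, MMN and LMN motoneurons was measured on 30 Affymetrix arrays. The deposited values are linear intensity values that the authors normalized with R-pack, per the labels, and turned back from logs. How R-pack was run is not given in the sources used here. Medians of the IML and MMN arrays ran from 131.69 to 145.908. No detection calls were used, and probe sets have no coordinates, since no build is stated.

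Of 12488 probe sets, 66 controls were left out. Among those tested 10833 had 1 gene symbol, 396 several and 1193 none, and 10817 were named through the gene identifier (GRCm38.p6). Suffixed probe sets (_f_at, _s_at and the like) can also bind related transcripts.

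After log2 and averaging, pool and animal were fitted over 10 samples with limma 3.58.1 in R 4.3.3 (lmFit, eBayes, two-sided). P-values were adjusted by Benjamini-Hochberg, with 0.05 as the limit. Animals pair the samples, per the labels, and same-animal samples deviated together in 5 of 5 pairs (correlation at least 0.384). Without this replicate block 2 probe sets were called, not 6. An exact sign-change test of 5 animals cannot go below p = 0.0625 and was not used. Scripts were tested on simulated data.

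Up to 15 genes a side were named, called ones first, then by smallest p, with the same sign in 5 of 5 animals, a level in the higher pool of at least the median (7.11) and, if not called, a size of at least 0.5. Adcyap1, Reln, Ahi1, Cbln1, Ncam1, Slc18a3, Isl1, Prph and Nos1 were always named, with up to 4 members of smallest p per list. The comparison, markers and lists were chosen with earlier results of these data known. Alternatives changed the block, arrays, pools, scaling, filters, prior, threshold and animals.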

Additional observations from a re-analysis of the deposited data

Results flagged for a closer look

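Among the 34 named genes, 68 groups of 5 samples were checked for a sample far from the others (Dixon's ratio), and 6 were found, where chance gives about 1 in 20. In MMN, animal 2 had the highest Bex4 (8.42, next 8.08) and Ncam1 (9.63, next 9.25) and the lowest Fgf11 (8.79, next 9.44). In IML, animal 2 had the highest Scg2 (9.98, next 9.70), animal 1 the lowest Ttc39b (8.76, next 9.29) and animal 4 the highest Pvalb (12.60, next 12.21). None of these genes was called between IML and MMN.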

How the results depend on the processing

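Against 6 calls between IML and MMN, 2 probe sets were called with no replicate block (Thrsp and Sh3bgr, lower), 29 with the animal as a random effect (20 higher, 9 lower), 43 with all 3 pools in the model, and 260 with all 20 arrays and the sample as a random effect (153 higher, 107 lower), of which 0, 5, 5 and 6 were among the 6. Technical set 1 alone gave 1 (Hpca) and set 2 alone 1 (Adcyap1). Quantile normalization, median centring and a floor of 32 each gave 0 by limma, with 1293, 1196 and 948 at an unadjusted p under 0.05. A threshold of 0.01 gave 0, against the same 1193 at an unadjusted p under 0.05, and 0.1 gave 14. Without each animal in turn 0 to 1 were called: Adcyap1 without animal 5, an unnamed probe set without animal 1, and none without animals 2, 3 or 4 (1316, 821 and 1102 at an unadjusted p under 0.05). Leaving out dim or suffixed probe sets, or changing the prior, gave 5 to 9. Adcyap1 was called in 10 of 19 alternatives and Gap43 in 6 of 18, and none of the 6 changed sign. Between LMN and MMN, 2 named genes were called with those samples alone (Cbln1 and Kcnab1) and 0 to 1 without each animal. The same MMN samples had served to name these 2 genes. Of genes not called, Nos1 changed sign without animals 1, 2 and 4, with values from -0.0504 to 0.0233 over the 5 animals left out. The technical spread and 5 animals limit what differences of the median SE, 0.0784, can show.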
